A study of Mus musculus with 2 samples.

Results

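Cd9, Cd37, Cd53, Cd63, Cd81, Cd82 and Cd151 are 7 tetraspanins of leukocytes and macrophages, and all 7 symbols were found among the 55357 genes of the gene list. Their RNA was followed in single-cell profiles of CD45+ CD11b+ cells sorted from mouse cerebral cortex, in 1 library from Moesin (Msn) knockout mice (KO) and 1 library from wild-type mice (WT). Mice of both genotypes were 8 weeks old, and each library pooled the cortices of 5 to 6 mice. C57BL/6 is named for the knockout mice; which Msn exons they lack, their sex and the WT strain are not stated in the sources read. Cells were freed with papain and DNase I and enriched on Percoll before the sort, and a sort on these surface proteins also takes blood and border myeloid cells. With 1 library per genotype no difference between genotypes has a replicate check, and no p-value is given; intervals cover counting error only.

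Tetraspanins are small proteins that cross the plasma membrane several times and gather other membrane proteins, among them integrins, growth factor precursors and immunoglobulin-like proteins, into shared patches. Of these partners, Igsf8 and Ptgfrn were shown in human cells to bind ezrin, radixin and moesin, the proteins that tie membrane proteins to cortical actin. Cd81 is found on many kinds of cell, Cd9 acts in adhesion and in the fusion of egg and sperm, and Cd63 sits mainly in late endosomes, lysosomes and the vesicles released from them. Cd53 and Cd37 are largely restricted to blood cells, Cd82 was described as a suppressor of metastasis, and Cd151 binds integrins that recognise laminin.

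The genes lie on separate parts of the genome, except that 3 of them share chromosome 7. On GRCm39, the build of the files, the GENCODE vM39 annotation places Cd81 at chr7:142606314-142621672 on the plus strand, Cd151 at chr7:141047256-141052572 on the plus strand and Cd37 at chr7:44882849-44888546 on the minus strand. Cd9 lies at chr6:125437210-125471778, minus strand, Cd53 at chr3:106666177-106697530, minus strand, Cd82 at chr2:93249455-93293485, minus strand, and Cd63 at chr10:128731528-128748709, plus strand. The canonical transcript has 10 exons for Cd82 and 8 exons for each of the other genes. Cd37, Cd81 and Cd151 overlap Tead2, R74862 and Polr2l, which are read from the opposite strand. So are Gm10575 at Cd151, Gm68112, Gm28809 and Gm26728 at Cd9, Gm66801 at Cd63 and Gm10804 at Cd82. On their own strand, Cd9 overlaps Gm68847 and Cd82 overlaps Mir7001, which held 0 UMIs in each library. No overlap was annotated for Cd53.

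The start regions of 5 members follow, from 250 bases before to 50 bases after the start of the canonical transcript, read from the GRCm39 genome 5′ to 3′ on the gene's own strand. Cd81, Cd37 and Cd151 are shown because they differed together between the libraries, Cd9 because it separated the kinds of monocyte, and Cd63 because it marked border macrophages and disease-associated microglia. Capitals mark GGGCGG, the core of a GC box, and GGAAGT, a core that ETS factors such as PU.1 can bind, on either strand.
Cd81, chr7:142606216-142606515, plus strand: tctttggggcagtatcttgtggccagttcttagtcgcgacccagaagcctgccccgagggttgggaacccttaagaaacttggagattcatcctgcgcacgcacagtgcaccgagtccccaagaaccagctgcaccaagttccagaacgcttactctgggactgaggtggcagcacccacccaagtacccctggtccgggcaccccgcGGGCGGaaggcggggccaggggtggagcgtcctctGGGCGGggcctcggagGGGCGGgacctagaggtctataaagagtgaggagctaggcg
Cd37, chr7:44888215-44888514, minus strand: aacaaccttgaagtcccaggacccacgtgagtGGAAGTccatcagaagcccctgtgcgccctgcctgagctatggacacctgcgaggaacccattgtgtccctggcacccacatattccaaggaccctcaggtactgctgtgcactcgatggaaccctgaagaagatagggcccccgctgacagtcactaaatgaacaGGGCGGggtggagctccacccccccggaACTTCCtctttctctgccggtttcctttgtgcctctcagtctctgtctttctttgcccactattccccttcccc
Cd151, chr7:141047006-141047305, plus strand: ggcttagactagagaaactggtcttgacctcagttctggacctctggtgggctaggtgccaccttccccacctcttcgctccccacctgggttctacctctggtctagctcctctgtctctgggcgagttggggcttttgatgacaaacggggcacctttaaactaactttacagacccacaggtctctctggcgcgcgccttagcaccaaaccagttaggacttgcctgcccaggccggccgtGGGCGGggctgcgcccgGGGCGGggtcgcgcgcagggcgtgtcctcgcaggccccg
Cd9, chr6:125471729-125472028, minus strand: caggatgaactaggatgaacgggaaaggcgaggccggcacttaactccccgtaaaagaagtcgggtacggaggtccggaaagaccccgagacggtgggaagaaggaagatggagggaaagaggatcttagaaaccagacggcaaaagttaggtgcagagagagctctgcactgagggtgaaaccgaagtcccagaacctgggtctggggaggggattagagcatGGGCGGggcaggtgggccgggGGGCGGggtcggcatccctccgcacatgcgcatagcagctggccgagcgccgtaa
Cd63, chr10:128745024-128745323, plus strand: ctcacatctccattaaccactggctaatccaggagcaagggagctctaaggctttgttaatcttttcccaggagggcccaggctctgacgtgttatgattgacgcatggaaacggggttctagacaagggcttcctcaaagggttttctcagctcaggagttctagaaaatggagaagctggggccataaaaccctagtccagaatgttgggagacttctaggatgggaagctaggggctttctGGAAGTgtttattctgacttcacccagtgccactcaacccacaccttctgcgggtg

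The letters differed between the members. GGGCGG occurred 3 times at Cd81, 2 times each at Cd9 and Cd151 and once each at Cd37 and Cd82, and it was absent from the windows of Cd53 and Cd63; 42.51% of 21757 gene starts of the same length held it on either strand. GGAAGT occurred 2 times at Cd37 and once at Cd63, against 24.08% of all starts. The longer GAGGAAGT, which contains GGAAGT, was found at Cd37 only, against 3.075% of all starts, and so was TCACGTG, against 4.15%. TATAAA was found at Cd81 only, against 13.2%. The share of G and C was 63% at Cd81 and at Cd151, 60.33% at Cd9, 64.67% at Cd82, 57.33% at Cd37, 50.33% at Cd63 and 44% at Cd53, against a median of 54.33%. These 5 strings were the only ones searched, and a match describes the letters and not a bound site.

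The KO library held 9038 cell barcodes with a median of 4816 transcript counts (unique molecular identifiers, UMIs) each, and the WT library held 5842 with a median of 6706; 13 barcodes occurred in both. After cells with fewer than 500 genes or more than 10% mitochondrial UMIs were left out, 7573 KO and 5577 WT cells stayed. Cells were classed by UMIs of a few genes. Cells in the gates of several classes made up 13.83% of KO and 4.32% of WT cells, had median depths of 15397 and 22661 UMIs, and were left out. This gave 4663 KO and 5034 WT microglia (P2ry12 and Tmem119), 542 and 48 monocytes (Ace or Ly6c2), 136 and 25 border macrophages (Mrc1 and Pf4), and 63 natural killer (NK) cells (Ncr1 and Nkg7) in the KO library; no WT cell met the NK gate, which allows a share of up to 0.0538%. All 8 microglial, all 10 monocyte, all 8 border macrophage and all 8 NK markers outside the gates were at 10 CPM or more (CPM, UMIs of a gene per 1000000 UMIs summed over the class) in their own class of each library that held it. Microglial markers were not confined to microglia. All 8 reached 10 CPM in KO border macrophages, at 4080 CPM in sum against 3721 CPM of the border macrophage markers. In WT border macrophages 7 did, at 3045 against 4766 CPM. In monocytes 6 (KO) and 8 (WT) did, at 964 and 1345 CPM. All 4 T cell markers (Cd3e, Cd3d, Cd3g and Trac) were also at 10 CPM or more in the NK class, at 244 CPM in sum against 53043 CPM of the NK markers, and their part in its values was not tested. Msn was at 20.7 CPM in KO microglia and 322 CPM in WT microglia. Its relatives Ezr and Rdx stood at 17.9 and 154 CPM in KO microglia, against 10.0 and 181 CPM in WT microglia.

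Microglial RNA was also counted in the other classes. Summed over 6 microglial genes outside the gate (Gpr34, Siglech, Olfml3, Sall1, P2ry13 and Sparc), monocytes held 2.63% of the microglial level in the KO library and 3.68% in the WT library, NK cells held 2.80%, and border macrophages held 14.4% and 9.28%. The same share of each tetraspanin's microglial level is given below as its carried level, an estimate that assumes these genes are silent in the other classes. P2ry12, which monocytes should lack, was counted in 12.7% of KO and 12.5% of WT monocytes after each cell was thinned to 2000 UMIs. Tmem119 was counted in 6.84% and 6.25%. Cells with both genes had been left out, which lowers these shares.

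Cd81 was far lower in monocytes and NK cells than in microglia. Its level was 109.7 CPM in KO monocytes and 99.6 CPM in KO NK cells, against 2764 CPM in KO microglia, and 90.9 CPM in WT monocytes against 2061 CPM in WT microglia. Border macrophages stood between, at 733 CPM in the KO library and 483 CPM in the WT library. In each library the exact 95% Poisson intervals of microglia (2747 to 2781 KO, 2050 to 2072 WT), border macrophages (659.5 to 812 and 366 to 626) and monocytes (98.6 to 122 and 63.0 to 127) did not overlap, whereas those of KO monocytes and KO NK cells did. A carried level would make up 66.2% of Cd81 in KO monocytes, 83.5% in WT monocytes and 77.8% in NK cells, and 54.2% and 39.5% of it in KO and WT border macrophages. At 2000 UMIs a Cd81 UMI was found in 21.7% of KO and 22.9% of WT monocytes and 17.5% of NK cells, against 98.9% of KO and 97.9% of WT microglia.

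Cd63 was lowest in monocytes and NK cells and highest in border macrophages. It reached 773 CPM (698 to 854) in KO and 780.3 CPM (629 to 957) in WT border macrophages, against 277 CPM in KO and 315 CPM in WT microglia. In monocytes it was 13.2 CPM (KO, 43 UMIs) and 18.7 CPM (WT, 7 UMIs), and in NK cells 15.1 CPM (5 UMIs). A carried level would account for 55.2% and 62.0% of the monocyte values and for 5.15% and 3.74% of those in border macrophages. At 2000 UMIs, 75.8% (65.9 to 84.0) of 95 KO and 72.7% (49.8 to 89.3) of 22 WT border macrophages had a Cd63 UMI. In microglia the shares were 37.7% (KO) and 43.0% (WT). P2ry12 was found in 37.9% of KO and 45.5% of WT border macrophages at that depth, and Tmem119 in 10.5% and 4.55%. Cells with both genes were left out of this class, so neither share measures its background of microglial RNA. The carried level of Tmem119 would be 295% of its KO and 604% of its WT level there.

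Cd9 was highest in microglia, whether monocytes were taken as 1 class or split by Ace and Ly6c2 as below. Its level was 504 CPM in KO monocytes, 230.2 CPM in KO border macrophages and 266 CPM in KO NK cells, against 1108 CPM in KO microglia. In the WT library it was 316 CPM in monocytes and 119 CPM (14 UMIs) in border macrophages, against 1080.4 CPM in microglia. Intervals of KO NK cells (213 to 327) and KO border macrophages (190.1 to 276) overlapped. So did those of WT monocytes with Ace and no Ly6c2 (709 to 1076) and WT microglia (1072 to 1089). The carried level would be 69.2% of Cd9 in KO and 84.4% in WT border macrophages, but 5.78% and 12.6% of it in monocytes and 11.7% in NK cells.

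Cd53, which holds L-selectin on the surface of leukocytes, was counted in every class of both libraries at 279.9 to 691 CPM. KO monocytes, border macrophages and NK cells had 442, 398 and 344 CPM, against 632 CPM in KO microglia. WT monocytes and border macrophages had 548 and 279.9 CPM, against 691 CPM in WT microglia. Its lowest class was NK cells in the KO library and border macrophages in the WT library, and the intervals of KO border macrophages (345 to 458) and NK cells (284 to 413) overlapped. The carried level would be 3.76% of Cd53 in KO and 4.64% in WT monocytes, 22.8% and 22.9% in border macrophages and 5.15% in NK cells.

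Cd37, an organiser of surface receptors such as dectin-1 (Clec7a), was lowest in monocytes, at 113 CPM in the KO library and 90.9 CPM in the WT library. Border macrophages had 228 CPM (KO) and 203.5 CPM (WT), and KO NK cells had 368 CPM (306 to 440), against 528 CPM in KO and 424 CPM in WT microglia. Cd82 had its highest KO level in NK cells, at 169 CPM (128 to 219.5). It was 97.4 CPM in KO monocytes and 76.1 CPM in KO border macrophages, against 113 CPM in KO microglia, and 58.8 and 119 CPM in WT monocytes and border macrophages, against 113 CPM in WT microglia. WT border macrophages and WT microglia did not differ in Cd82 beyond counting error, with 14 UMIs behind the border macrophage value. Cd151 was the sparsest member, at 11.95 CPM in KO monocytes, 44.0 CPM in KO border macrophages and 6.04 CPM (2 UMIs) in NK cells, against 67.4 CPM in KO microglia. WT monocytes and border macrophages gave 1 and 2 Cd151 UMIs, or 2.67 and 17.0 CPM, against 49.7 CPM in WT microglia. In KO and WT monocytes the carried level would be 12.2% and 17.2% of Cd37, 3.06% and 7.06% of Cd82, and 14.8% and 68.5% of Cd151. In KO and WT border macrophages it would be 33.2% and 19.3% of Cd37, 21.4% and 8.81% of Cd82, and 22.0% and 27.2% of Cd151. In NK cells it would be 4.02% of Cd37, 1.88% of Cd82 and 31.3% of Cd151.

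**Figure D1:**
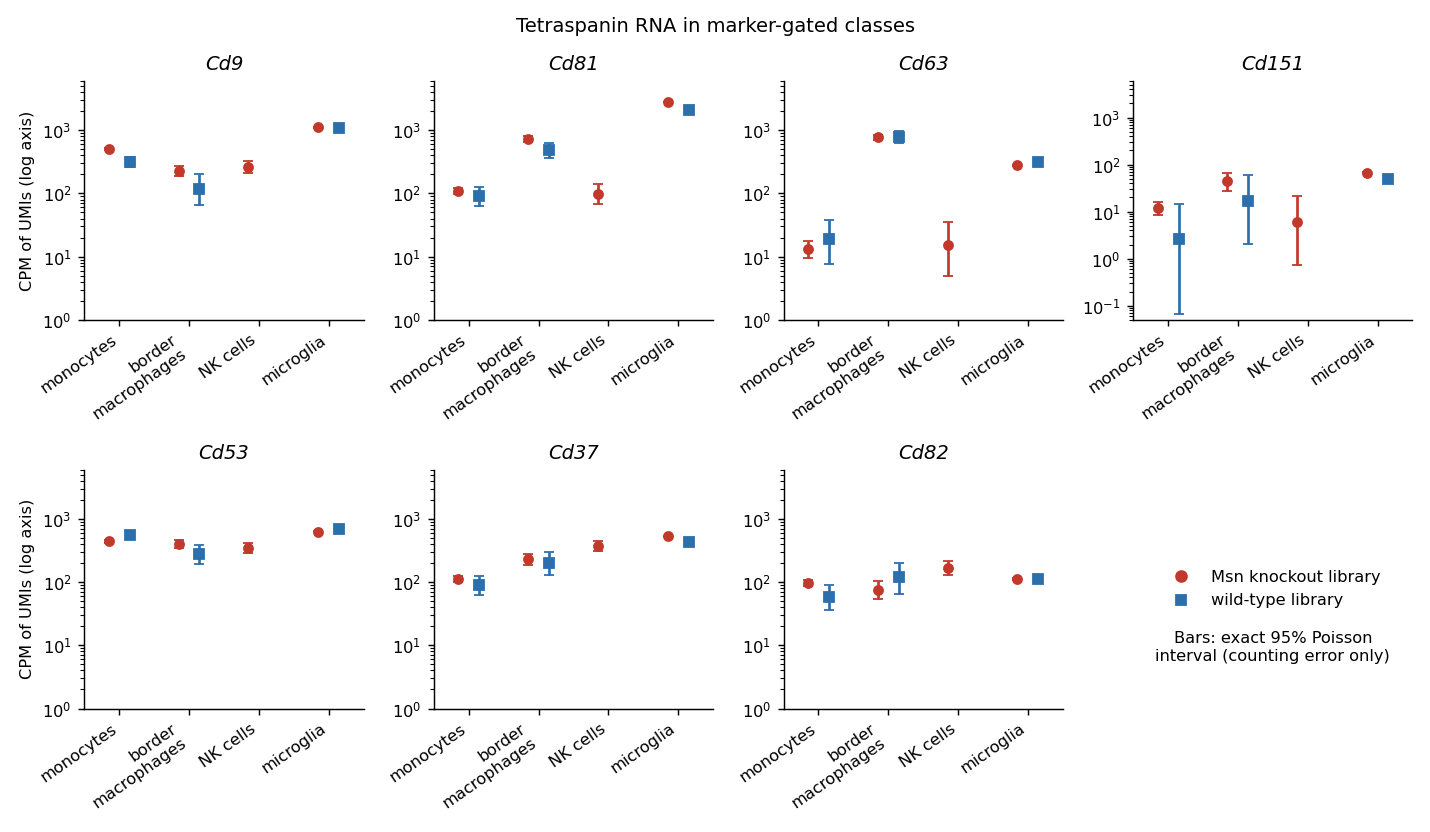
Level of each tetraspanin in CPM of UMIs (log axis) in monocytes, border macrophages, NK cells and microglia of the Msn knockout library (red circles) and the wild-type library (blue squares), 1 library each; bars are exact 95% Poisson intervals. Cd81 is at 109.7 and 99.6 CPM in KO monocytes and NK cells against 2764 CPM in KO microglia, Cd63 peaks in border macrophages, and Cd53 stays within 279.9 to 691 CPM.

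To compare classes, the log2 ratio of CPM was set relative to the median of all genes measured (10 CPM or more in at least 1 of the 2 sums and 50 UMIs in both together), and a gene was called by size alone at 1.5-fold. Over microglia, monocytes had 5 of 7 members lower and 0 higher in each library. Of all genes, 30.1% were lower and 31.0% higher in the KO library, and 30.9% and 31.6% in the WT library. The 5 were Cd81 (relative log2 of -4.28 KO and -4.05 WT), Cd63 (-4.01 and -3.62), Cd37 (-1.84 and -1.77), Cd9 (-0.76 and -1.32) and Cd151 (-2.12 and -3.76). Cd53 and Cd82 lay within 1.5-fold, at -0.14 and 0.16 in the KO library and 0.12 and -0.49 in the WT library; on the CPM scale Cd82 was also lower in WT monocytes, at -0.94. The median of the members was -1.84 and -1.77, where the median gene is 0 by construction.

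Border macrophages had Cd63 higher than microglia, at 1.62 (1.47 to 1.76) in the KO library and 1.35 (1.04 to 1.65) in the WT library, where 20.6% and 28.1% of all genes were higher. Cd9 (-2.13 KO, -3.14 WT), Cd81 (-1.78 and -2.05) and Cd37 (-1.07 and -1.01) were lower in both libraries, which makes 3 members lower in the KO library, where 21.6% of genes were lower. In the WT library 5 members were lower, against 27.3% of genes, since Cd53 stood at -1.26 and Cd151 at -1.51 with an interval of -4.55 to 0.35. In CPM, 5 members were lower in each library, Cd53 (-0.67) and Cd151 (-0.61) joining the 3 in the KO library. On that scale 2225 of 8513 genes were lower in the KO library and 2645 of 9176 in the WT library. NK cells had 1 member higher, Cd82 at 0.84 (0.43 to 1.22), where 32.4% of genes were higher, and 5 lower, where 32.6% of genes were lower. The 5 were Cd81 (-4.53), Cd63 (-3.94), Cd151 (-3.22), Cd9 (-1.80) and Cd53 (-0.62), and Cd37 lay within 1.5-fold at -0.26. On the CPM scale without the median, Cd82 in NK cells stood at 0.58, just under the limit.

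These contrasts depended on leaving out cells in more than one gate. When cells in the microglia gate and 1 other gate were counted in the other class, Cd63 in border macrophages over microglia came to 0.33 (KO) and 0.06 (WT), and Cd81 in monocytes over microglia came to -1.03 and -0.78. With only cells that had no UMI of P2ry12 and Tmem119, which left enough cells in the KO library alone, Cd81 in KO monocytes stayed at -4.29 and Cd63 in KO border macrophages at 1.26.

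**Figure D2:**
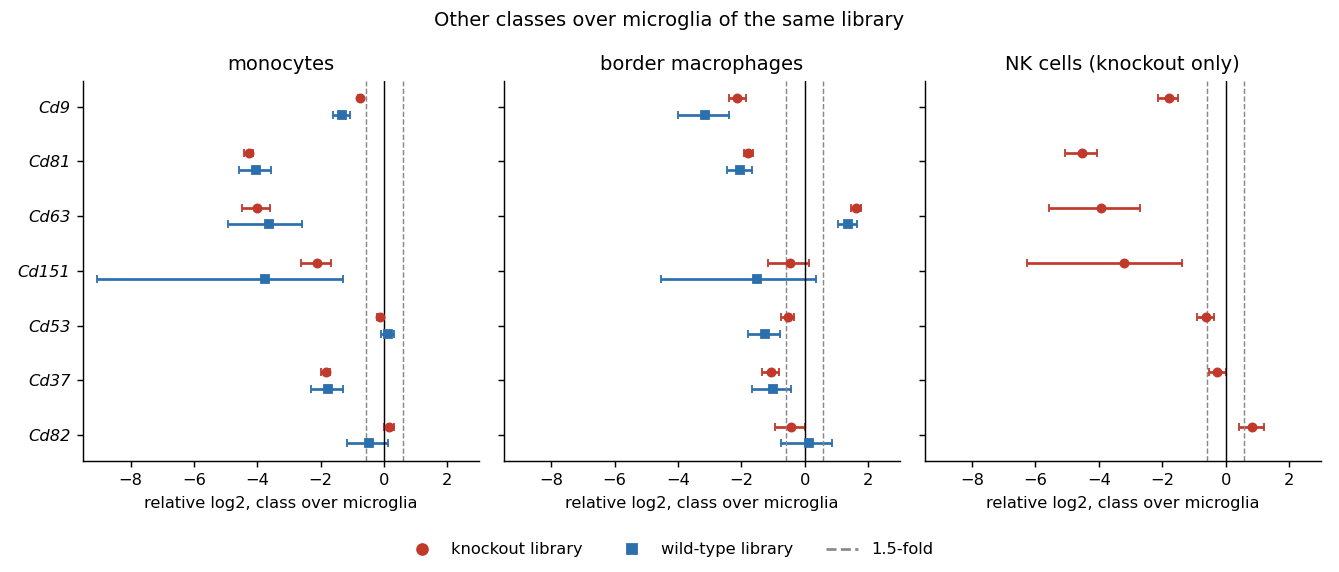
Relative log2 ratio of each tetraspanin in monocytes, border macrophages and NK cells over microglia of the same library (KO red circles, WT blue squares), with exact 95% counting intervals; dashed lines mark 1.5-fold. Cd63 and Cd81 lie near -4 in monocytes, and Cd63 lies right of the 1.5-fold line in border macrophages, at 1.62 and 1.35.

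Monocytes were not alike in Cd9 and Cd82. Ace, angiotensin-converting enzyme, marks the patrolling kind and Ly6c2 the classical kind in mice. The KO library held 282 monocytes with Ace and no Ly6c2 and 108 with Ly6c2 and no Ace. The WT library held 19 and 21 such cells, and its 19 Ace cells fall under the minimum of 20 cells set for a comparison, so values that use them are descriptions. Cd9 was at 845 CPM (798 to 894) in Ace cells of the KO library, against 76.5 CPM (59.2 to 97.3) in its Ly6c2 cells. In the WT library Cd9 was at 878 CPM (709 to 1076) in Ace cells, against 54.1 CPM (27.0 to 96.7, 11 UMIs) in Ly6c2 cells. The intervals of the kinds did not overlap in either library, and a carried level would make up 26.1% of Cd9 in KO and 66.1% in WT Ly6c2 cells.

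Relative to the median gene, Cd9 in Ace over Ly6c2 cells stood at 3.36 (3.00 to 3.74) in the KO library and at 3.97 (3.07 to 5.02) in the WT library, or 10.3-fold and 15.7-fold. Cd82 was at 154 CPM in Ace cells of the KO library, against 19.7 CPM in Ly6c2 cells, at 2.87 (2.15 to 3.67). In the WT library Cd82 rested on 11 and 8 UMIs, at 104 and 39.3 CPM. Cd81 was at 139 against 67.2 CPM in the KO library, at 0.94, with 66.1% and 74.1% of these levels equal to the carried level. Of the 5 members measured in the KO library, these 3 were higher in Ace cells and 0 lower, where 18.7% of 4775 genes were higher and 17.6% lower. Cd53, at 472 against 377 CPM, and Cd37, at 128 against 90.4 CPM, lay within 1.5-fold. Markers of other cells differed too: the 5 neutrophil markers summed to 18.5 CPM in KO Ace cells, against 7869 CPM in KO Ly6c2 cells, and to 0 CPM in both kinds of WT cell. The 4 choroid plexus and ependyma markers summed to 1569 CPM in KO Ace cells, against 18.5 CPM in KO Ly6c2 cells, and were at 0 in both kinds of WT cell. The 8 NK markers summed to 24.9 against 741 CPM in the KO library and to 18.9 against 167 CPM in the WT library. The 8 border macrophage markers summed to 31.3 against 636 CPM in the KO library and to 9.44 against 831 CPM in the WT library. In KO Ly6c2 cells 1 of these 8 reached 10 CPM, and Lyve1 and Folr2 were at 0. In WT Ly6c2 cells 3 did, and Cd163, Lyve1 and Folr2 were at 0. Over all KO monocytes, F13a1 made 179 of the 203 CPM of this list. Whether RNA of other cells had a part in the Cd9 and Cd82 values was not tested.

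**Figure D3:**
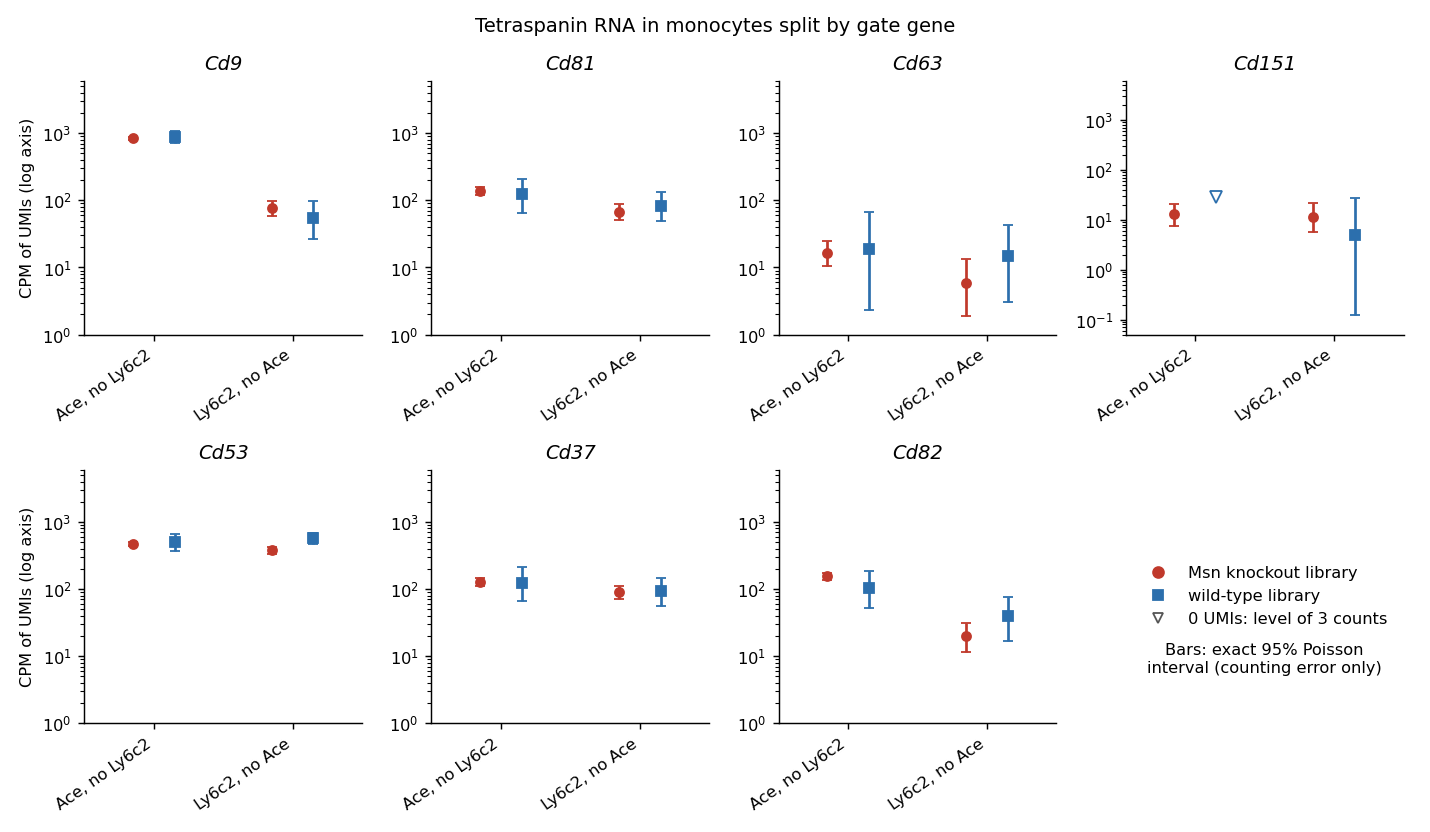
Level of each tetraspanin in CPM of UMIs (log axis) in monocytes with Ace and no Ly6c2 and in monocytes with Ly6c2 and no Ace, in the KO (red circles) and WT (blue squares) libraries; bars are exact 95% Poisson intervals and an open triangle marks the level of 3 UMIs where 0 were counted. Cd9 lies at 845 and 878 CPM in Ace cells and at 76.5 and 54.1 CPM in Ly6c2 cells.

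Between the genotypes, the members of microglia differed little in CPM. Cd81 was at 2764 CPM in KO and 2061 CPM in WT microglia, a log2 ratio of 0.42. Cd37 was at 528 and 424 CPM (0.32), and Cd151 at 67.4 and 49.7 CPM (0.44). Cd9, at 1108 and 1080.4 CPM, and Cd82, at 113 and 113 CPM, were almost level, with log2 ratios of 0.04 and 0.01. Cd53 was at 632 CPM in KO and 691 CPM in WT microglia (-0.13), and Cd63 at 277 and 315 CPM (-0.19).

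The median of 8721 genes measured in microglia stood at -0.30 on this scale. Relative to it, 3 of 7 members were higher in KO microglia and 0 lower, where 15.4% of all genes were higher and 12.5% lower. They were Cd151 at 0.74 (0.66 to 0.82), Cd81 at 0.72 (0.71 to 0.73) and Cd37 at 0.61 (0.59 to 0.64), and the other 4 ran from 0.11 for Cd63 to 0.33 for Cd9. The median of the members was 0.33. On the CPM scale 0 of the 7 passed 1.5-fold, and the split over all genes was 421 higher and 2667 lower in place of 1343 and 1094. The calls for Cd81, Cd37 and Cd151 thus rest on the scaling: 0 were called relative to genes at 100 CPM or more.

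Within bins of cell depth the CPM ratios kept their direction for these 3. From 3000 UMIs upward, the KO level over the WT level lay between 1.29 and 1.37 for Cd81, and between 1.29 and 1.47 for Cd151. Cd37 lay between 1.13 and 1.28 over all 6 bins. Cells of 1000 to 3000 UMIs gave 1.79 for Cd81 and 3.18 for Cd151. Cd63 lay between 0.768 and 0.921 and Cd9 between 0.98 and 1.06 in every bin. After thinning to 2000 UMIs, 64.7% of KO and 57.4% of WT microglia had a Cd37 UMI, and 12.5% and 9.11% had a Cd151 UMI. Without thinning these shares were 89.9% and 91.7% for Cd37 and 36.4% and 37.6% for Cd151, so the order of both turned with depth.

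The libraries also differed in markers of other cells within microglia. The 10 monocyte markers summed to 361 CPM in KO microglia and 229 CPM in WT microglia, the 5 neutrophil markers to 222 and 17.6 CPM, and the 4 erythroid markers to 669 and 87.1 CPM, while the 8 microglial markers summed to 23057 and 23082 CPM. Lyz2 made 283 CPM of the KO monocyte marker sum, and 3 of these 10 markers reached 10 CPM in KO microglia and 1 in WT microglia. None of the monocyte or neutrophil markers was at 0. Their part in the tetraspanin values was not tested.

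In monocytes Cd9 was at 504 CPM in the KO and 316 CPM in the WT library, and Cd82 at 97.4 and 58.8 CPM. Relative to the median gene these were 0.77 (0.50 to 1.06) and 0.83 (0.20 to 1.52), which makes 2 of 6 members measured higher and 0 lower, where 17.2% of all genes were higher and 18.4% lower. Within Ace cells, however, Cd9 stood at 0.01 (-0.30 to 0.33), at 845 CPM in the KO and 878 CPM in the WT library. Within Ly6c2 cells Cd9 stood at 0.42 (-0.52 to 1.49). Ace cells without Ly6c2 were 282 of 542 KO monocytes and 19 of 48 WT monocytes. Cd82 stood at 0.63 (-0.23 to 1.66) within Ace cells, where 21.1% of genes were higher and 20.7% lower, and at 0.57 there on the CPM scale. Within Ly6c2 cells Cd82 had 17 KO and 8 WT UMIs, under the 50 UMIs of a measured gene, and a value of -1.08 (-2.37 to 0.34). Cd53 was at 377 CPM in KO and 575 CPM in WT Ly6c2 cells, at -0.70 (-1.01 to -0.38), where 19.2% of genes were lower and 15.9% higher, and at 472 and 501 CPM in Ace cells. Cd81, Cd37 and Cd63 of all monocytes lay within 1.5-fold, at 0.37, 0.42 and -0.41, with intervals that included 0. The 5 neutrophil markers summed to 2096 CPM in KO monocytes and 2.67 CPM in WT monocytes, where S100a8, Retnlg, Ly6g and Camp were at 0. The 4 choroid plexus and ependyma markers summed to 685 CPM in KO monocytes and were all at 0 in WT monocytes. The part of either list in these values was not tested.

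In border macrophages the comparison rests on 25 WT cells. Cd9 was at 230.2 CPM (115 UMIs) in KO and 119 CPM (14 UMIs) in WT cells, at 0.83 (0.02 to 1.74), and its carried levels were 159 CPM and 100.2 CPM. Cd82 was at 76.1 CPM (38 UMIs) in KO and 119 CPM (14 UMIs) in WT cells, at -0.77 (-1.69 to 0.23). These were 1 member higher and 1 lower of 6 measured, where 15.6% of all genes were higher and 22.4% lower. Cd63 stood at -0.14 (-0.48 to 0.20), Cd81 at 0.47, Cd53 at 0.38 and Cd37 at 0.04. On the CPM scale Cd81 also passed 1.5-fold, at 0.60, with carried levels of 397 of 733 CPM in KO and 191 of 483 CPM in WT cells. The 10 monocyte markers summed to 5487 CPM in KO and 7701 CPM in WT border macrophages, of which Lyz2 made 5291 and 7608 CPM, and Vcan and Fn1 were at 0 in both.

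**Figure D4:**
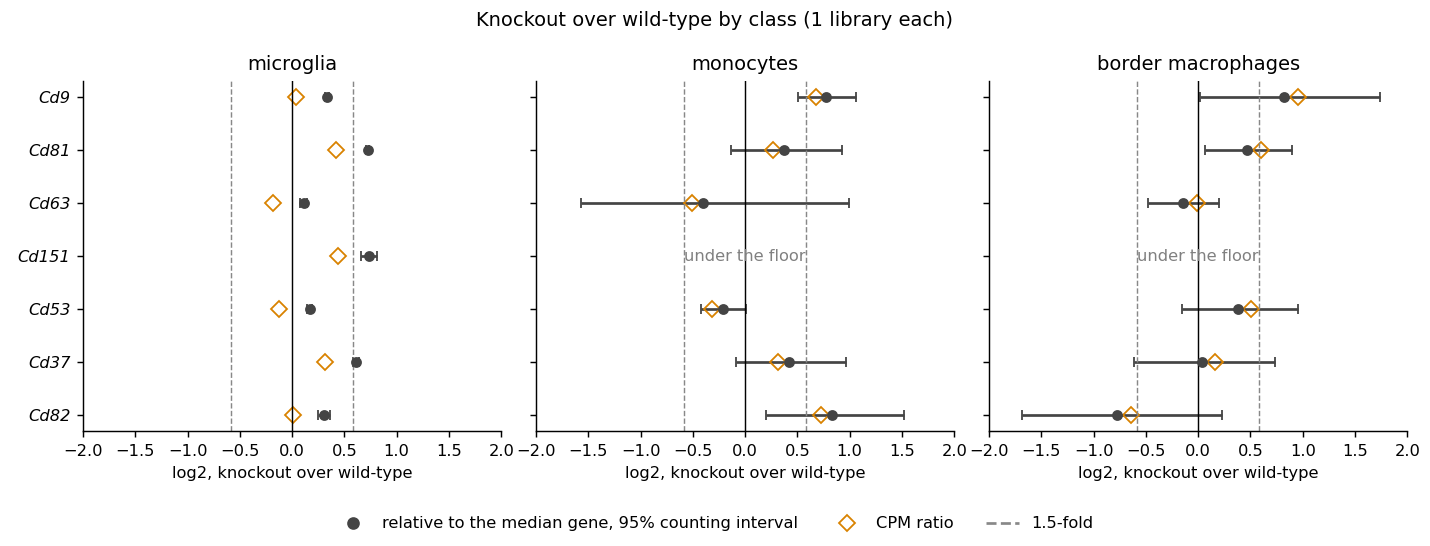
Knockout over wild-type log2 ratio of each tetraspanin in microglia, monocytes and border macrophages: filled circles are relative to the median gene with exact 95% counting intervals, open diamonds are the CPM ratio, and dashed lines mark 1.5-fold. In microglia Cd81, Cd37 and Cd151 pass the line relative to the median and none does in CPM; Cd151 is not drawn in the other classes, where it was under the floor for a measured gene.

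Among microglia, Cd63 and Cd9 followed the disease-associated genes, a programme known from microglia around amyloid plaques. Cells were gated on UMIs of 2 or more of 9 such genes (Spp1, Itgax, Lpl, Clec7a, Cst7, Gpnmb, Igf1, Lgals3 and Fabp5) after thinning; the tetraspanins were not used, although Cd63 and Cd9 are known members of this programme. The gate took 43 of the KO microglia and 45 of the WT microglia, 0.996% and 0.919% of cells of 2000 UMIs or more. Cd63 was at 706 CPM (632 to 787) in gated cells of the KO library, against 271 CPM (266 to 276) in its other microglia. In the WT library Cd63 was at 859 CPM (795 to 928) in gated cells, against 308 CPM (304 to 313) in other microglia. Cd9 was at 1646 CPM against 1107 CPM in the KO library and at 1732 CPM against 1073 CPM in the WT library. No interval of gated cells overlapped that of other microglia for these genes.

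Relative to the median gene, Cd63 stood at 1.491 (KO) and 1.497 (WT) and Cd9 at 0.68 and 0.71. They were 2 of 7 members higher and 0 lower, where 16.8% of genes were higher and 14.1% lower in the KO library, and 6.96% and 7.02% in the WT library. The other 5 lay within 1.5-fold, from -0.49 (KO) and -0.51 (WT) for Cd82 to 0.04 and -0.02 for Cd151, and Cd81 stood at -0.27 and -0.09. In CPM of the KO library, Cd9 fell short of 1.5-fold, at 0.57, and Cd82 passed it, at -0.60; in the WT library Cd63 and Cd9 passed on both scales. Gated cells were deeper, with medians of 7171 (KO) and 11258 (WT) UMIs, against 5813.5 and 7523 UMIs in the others. They also held more monocyte marker RNA, 2224 CPM against 336 CPM in the KO library and 777 CPM against 222 CPM in the WT library, mostly Lyz2 (1511 and 729 CPM in gated cells). In the KO library 7 of the 10 monocyte markers reached 10 CPM in gated cells and Vcan was at 0; in the WT library 3 did, and Chil3, Treml4 and Cd300e were at 0. The part of monocyte RNA in the Cd63 and Cd9 values was not tested. The 8 border macrophage markers summed to 122 CPM in gated cells against 200.4 CPM in the KO library, and to 239 CPM against 249 CPM in the WT library. Only 1 of them reached 10 CPM in gated and in other cells of each library. Over all KO microglia, Stab1 made 179.6 of the 203 CPM of this list, so the sum says little about border macrophage RNA. The part of such RNA in the Cd63 and Cd9 values was not tested.

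In the other microglial states 0 of 7 members passed 1.5-fold in either library. Interferon-responsive cells (156 KO, 86 WT), gated like the disease-associated ones on 9 genes, had 5.62% of all genes higher and 2.58% lower in the KO library, and 4.23% and 3.22% in the WT library. Cells with both Ccl3 and Ccl4 (1555 and 2046) had 0.316% higher and 0.164% lower in the KO library, and 0.149% and 0.0459% in the WT library. Cells with both Hspa1a and Hspa1b (402 and 69) had 0.475% higher and 0.525% lower, and 4.54% and 4.91%. Cells with Ccl3 and Ccl4 had Cd63 at 298 CPM against 259 CPM in the KO library and at 342 CPM against 285 CPM in the WT library, at 0.21 and 0.26. Their Cd9 stood at 0.18 and 0.12.

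**Figure D5:**
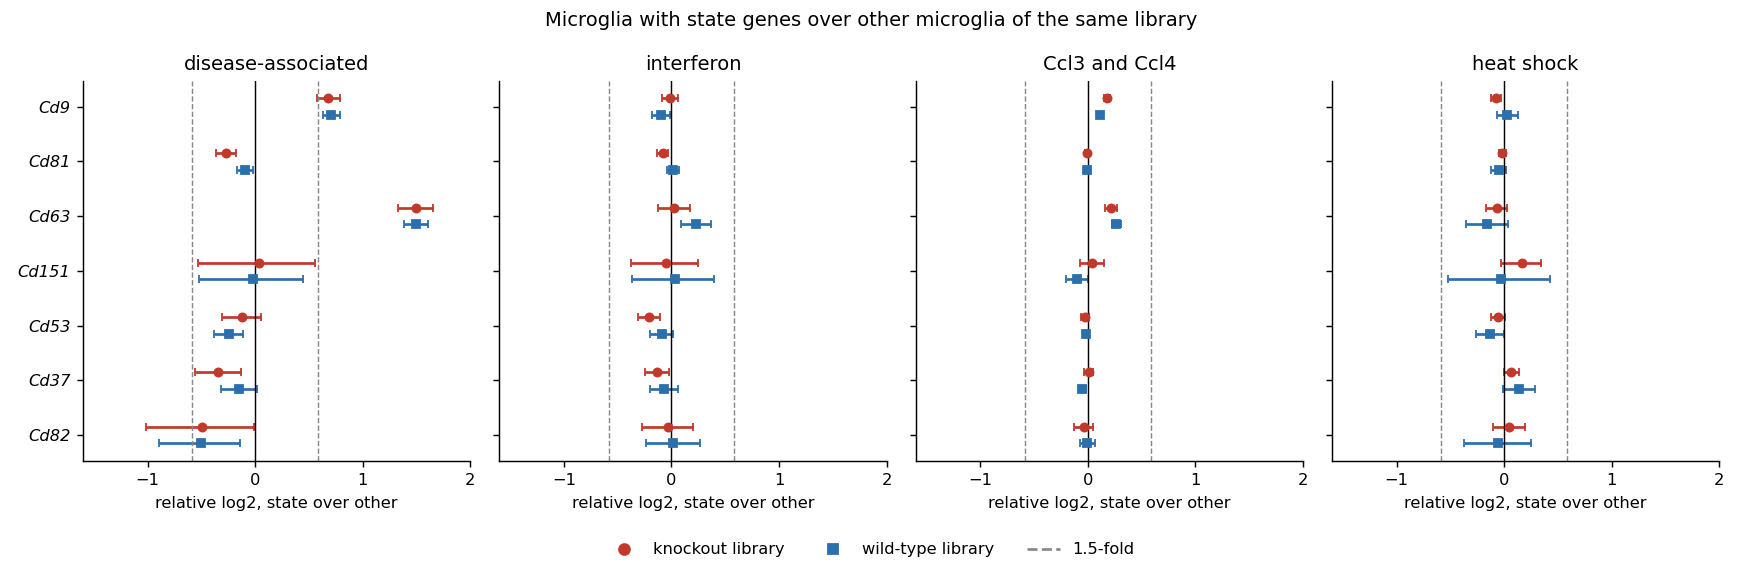
Relative log2 ratio of each tetraspanin in gated microglia over other microglia of the same library (KO red circles, WT blue squares) for 4 states, with exact 95% counting intervals; dashed lines mark 1.5-fold. Cd63 near 1.5 and Cd9 near 0.7 stand right of the line in the disease-associated state of both libraries, and no member passes it in the other states.

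Cd63 also varied more from cell to cell than most genes of its level. In microglia thinned to 2000 UMIs, the variance of Cd63 counts over their mean was 1.45 in the KO and 1.41 in the WT library, above the 95th percentile of genes of like level (1.36 and 1.26). Cd9 had 1.51 and 1.39, against medians of 1.30 and 1.19 for genes of like level and below their 95th percentiles. Cd81, at 1.36 and 1.20, lay below the medians of its like genes, 1.87 and 1.35, and Cd37, Cd53, Cd82 and Cd151 lay between 0.998 and 1.08. Across single microglia the correlations between pairs of members were weak, from -0.03 to 0.11 in the KO library and from -0.04 to 0.10 in the WT library, as a description over sparse counts.

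Other genes of the family were followed from a list of 24 further tetraspanins, 12 of them measured in microglia. Tspan4, Tspan33 and Upk1b were at 95.9, 65.8 and 54.5 CPM in KO microglia, against 72.6, 53.1 and 35.5 CPM in WT microglia. They stood at 0.70, 0.61 and 0.92 relative to the median gene, which makes 3 of 12 higher and 0 lower. Of all 8721 genes measured, 15.4% were higher and 12.5% lower. The median of the 12 was 0.42. On the CPM scale 1 of the 12, Upk1b, passed 1.5-fold, where 421 of 8721 genes were higher and 2667 lower. Tspan3 (125 KO and 103 WT CPM, at 0.58), Tspan13 (153 and 130.1 CPM, at 0.53) and Tspan14 (168 and 167 CPM, at 0.31) lay within it, as did Tspan5, Tspan7, Tspan9, Tspan18, Tspan31 and Tspan32.

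Of 22 partners of tetraspanins, 15 were measured in microglia, 3 of them higher and 1 lower in the KO library. Of all genes measured, 15.4% were higher and 12.5% lower. The median of the 15 was -0.08. Igsf8, the partner that binds ezrin-family proteins, was at 63.5 CPM in KO and 51.1 CPM in WT microglia, at 0.61. Itgal, an integrin chain that is also among the monocyte markers, was at 11.6 and 1.27 CPM, and Ifitm1, an interferon-induced membrane protein, at 13.6 and 0.661 CPM. Itga6, a laminin-binding integrin chain and partner of Cd151, was at 175 CPM in KO and 391 CPM in WT microglia, at -0.86. The 11 within 1.5-fold included Itgam (473 and 592 CPM, at -0.03), Itgb1 (187 and 249 CPM, at -0.11), Ptprc (276 and 441 CPM, at -0.38), Adam10 (165 and 206 CPM, at -0.03) and Adam17 (94.4 and 169 CPM, at -0.54). On the CPM scale the partners split into 2 higher and 6 lower, against 421 higher and 2667 lower of all 8721 genes. Ptgfrn, the other partner that binds ezrin-family proteins, was under the floor, at 5.24 and 8.68 CPM.

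The genes most like each member were ranked among 10341 genes by Pearson correlation of log2(CPM + 1) over 8 sums. These were the classes of each library with 20 cells or more, with monocytes split by Ace and Ly6c2. WT monocytes entered as Ly6c2 cells only, since the 19 WT Ace cells were too few, and the WT library had no NK cells. The sums share their libraries and their free RNA, so the correlations describe these sums only. Cd81 went with Scoc (0.99), 2610528A11Rik (0.99) and Siglech (0.99), Cd151 with Ddah2 (0.99), Tmem59 (0.99) and Cst3 (0.98), and Cd37 with Phgdh (0.98), Il7r (0.97) and Cxxc5 (0.97). Cd63 went with Dnajb2 (1.00), Cxcl16 (0.99) and Plcb3 (0.99), and Cd9 with Efhd2 (0.96), Cr1l (0.95) and Fgf13 (0.94). Cd53 went with Glyr1 (0.96), Dmac2l (0.96) and Adamts16 (0.95), and Cd82 with Gtpbp6 (0.94), Rtf1 (0.91) and Oard1 (0.91). As the 3 highest of 10341 genes over 8 sums, these had high values in part through the picking. Some were low in the smaller sums: Dnajb2 was at 4.91 CPM in WT Ly6c2 cells. Fgf13 was at 0 in WT and KO Ly6c2 cells and in WT border macrophages.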

How the data were processed

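Cells of 2 libraries, 1 per genotype, were profiled with the 10x 3′ v2 chemistry, per the labels, which state Cell Ranger 6.0 and Seurat; the file headers give Cell Ranger 7.0.0. The authors aligned reads to GRCm39 and deposited UMI counts per gene and barcode, per the file headers. Deposited barcodes had 500 UMIs or more, and 1463 KO and 207 WT barcodes had fewer than the 500 genes that the labels give as a minimum. Total UMIs were 67575835 (KO) and 68576464 (WT).

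Counts were summed over the cells of a class and library and given as CPM; 3′ UMI counts were not divided by gene length. Intervals are exact 95% (Poisson, conditional ratio, binomial) and cover counting error only. Monocytes needed 2 UMIs of Ace plus Ly6c2 in all, and the other gates 1 UMI of each gene. A class under 20 cells was not compared, except where the WT Ace cells are given as values. Shares of cells were taken after thinning each cell to 2000 UMIs. Shallower cells were left out: 346 KO and 136 WT microglia, 41 KO and 3 WT border macrophages and 16 KO monocytes. No doublet caller was run: cells in several gates were left out, and the deepest 6% of cells were removed as an alternative. All named genes were fixed by list, or as the 3 genes most like each member; the members and lists were chosen with earlier results of these data known. Alternatives covered filters, depth, gates, weighting, scaling and the call rule. Of the genes in the files, 54749 (98.9%) matched GENCODE vM39 by ID. Python 3.11.15, numpy 2.4.6, scipy 1.17.1 and pandas 2.3.3 were used.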

Additional observations from a re-analysis of the deposited data

Results flagged for a closer look

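Cd82 pointed in opposite directions in 2 classes: relative to the median gene it was 0.83 in KO over WT monocytes and -0.77 in KO over WT border macrophages. The difference between the classes was not tested, and the WT values rest on 22 and 14 UMIs. The border macrophage interval (-1.69 to 0.23) includes 0. The monocyte direction turned under an alternative, to -1.08 within Ly6c2 cells (25 UMIs in all, under the floor of 50). Border macrophages gave 0.31 with cells of the microglia gate counted in. Cells in several gates held 82.7% (KO) and 90.4% (WT) of the microglial level of the genes used for the carried level. The 0.31 thus rests mostly on microglial RNA and cannot show whether Cd82 turned in border macrophages.

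Reads were also assigned to processed copies of the members, which enter no comparison. Cd9-ps held 0 UMIs in the KO library and 9 UMIs in the WT library, over all barcodes, and Cd63-ps held 64 and 153 UMIs. Cd9 itself held 67634 and 72376 UMIs and Cd63 17750 and 21484 UMIs; how reads alike in a gene and its copy were assigned was not tested.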

How the results depend on the processing

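No paired analysis was possible because each genotype has 1 library. Of the summary counts under alternatives, 139 stayed within 1.5 times the reported count and 31 did not, and the cause was not tested. Changed floors, scales and call rules act on all genes. The share of all genes called is not given for these settings, apart from the CPM scale above. The counts below therefore show how calls move with the setting and are no result about the members. In microglia, KO over WT, members called went to 0 on the CPM scale, relative to genes at 100 CPM, and at 2-fold. Other tetraspanins went to 1, 1 and 0 under these, to 6 relative to genes with 1 UMI and to 13 with no floor. Partners went to 8, 8 and 2, and to 8 with no floor. In monocytes, KO over WT, the count went to 1 after thinning, between 5000 and 10000 UMIs, and within Ace or Ly6c2 cells alone (added after the data were seen), to 4 relative to genes with 1 UMI, 5 with no floor and 0 at 2-fold. In border macrophages it went to 1 with 1000 genes per cell or thinning, 4 with no floor and 0 at 2-fold. With cells of the microglia gate and 1 other gate counted in the other class, members called over microglia went to 0 (border macrophages, KO and WT) and 2 (NK cells). Under this setting Cd82, KO over WT, in border macrophages came to 0.31. Cells in several gates held 82.7% (KO) and 90.4% (WT) of the microglial level of the 6 microglial genes, so this setting adds mostly microglial RNA. Cd82 in monocytes reversed to -1.08 in Ly6c2 cells, on fewer than 50 UMIs. Disease-associated cells gave 4 in the KO library on thinned counts, where Cd37 and Cd82 were also lower, and 1 in each library at 2-fold. Heat shock cells of the WT library gave 1 on thinned counts and with 1 gene more in the gate. Cells with no UMI of P2ry12 and Tmem119, the 5000 to 10000 UMI window and the stricter disease-associated gate left too few cells in some classes and were not run there. Across alternatives, Cd63 in disease-associated over other microglia stayed between 1.38 and 1.75 and Cd9 between 0.57 and 0.81. The 25 WT border macrophages, 48 WT monocytes and 63 NK cells limit the precision of values in those classes.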
